A study of Mus musculus with 4 samples.

Results

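Acetylcholine is made in the cytoplasm of cholinergic neurons from choline and acetyl-CoA, packed into synaptic vesicles, released, and split back into choline and acetate within the synaptic cleft. Chat, Slc5a7, Slc18a3, Ache and Bche carry these steps, and the rows with these symbols were taken from the deposited gene tables. Rows were found for 4 of the 5 genes among the 22328 genes listed, and Slc18a3 was not analysed here. In the hippocampus most acetylcholine is released by axons whose cell bodies lie in the septum and diagonal band, and cholinesterases are made both by these neurons and by cells that receive the transmitter.

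Poly(A)-selected RNA of 4 mouse samples was sequenced, 1 library per group, in a study of choline supply and the hippocampus. F1m-CON and F1m-GCS are hippocampi of offspring whose mothers ate 1.1 g/kg or 5 g/kg choline chloride, respectively, from embryonic day 9 to birth. Both groups ate a basal diet afterwards, and behaviour was tested at 2 months. HT22 is an immortalised mouse hippocampal cell line. Its cultures were kept for 48 h with 5 µM (HT22 CON) or 70 µM (HT22 SUP) choline chloride, in high-glucose medium with fetal bovine serum in both groups. The sources used here do not give strain, age at dissection or whether animals were pooled. With 1 library per group no difference has a replicate check, and brackets give 95% intervals of counting error alone.

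Reads in genes numbered between 30265820 and 31175015 in the hippocampus libraries and between 13192007 and 18305096 in the HT22 libraries. Pan-neuronal markers summed to 10965 reads per 1e6 reads in genes (CPM) in F1m-CON and 10890 in F1m-GCS, but to 314 in HT22 CON and 388 in HT22 SUP. Prox1, the transcription factor of dentate granule cells, had 5186 and 5160 reads in the hippocampus libraries and 1 and 2 reads in the HT22 libraries. Rbfox3, the neuronal nuclear antigen NeuN, had 8635 and 8463 reads against 15 and 33. Other markers of the same lists were well counted in HT22, among them Eno2, a neuronal enolase, with 4042 and 2370 reads, Zbtb20 with 690 and 798, Wfs1 with 516 and 337 and Tubb3 with 317 and 147. Hippocampal neuron markers summed to 66.9 CPM in HT22 CON and 89.2 in HT22 SUP, against 1371 in F1m-CON and 1469 in F1m-GCS. Meningeal and fibroblast markers summed to 4969 and 4062 CPM in HT22, against 629 and 661. Of that list Igf2, Ptgds, Lum and Slc6a13 were lower in HT22. The markers of the labelled hippocampal neuron cell were thus present in part, at a lower summed level than in the tissue.

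Ache and Bche are related genes, and their coding sequences were compared to see whether reads of one could be counted for the other. Over 1792 aligned coding bases 57.6% were identical, and the longest run that both share was 17 bases. That run and its surroundings are shown 5′ to 3′ on the coding strand, from GENCODE M21 transcripts in GRCm38 (mm10), with the shared run in capitals. The Ache stretch lies within a coding exon of Ache-201 at chr5:137291494-137291600 on the plus strand, and the Bche stretch within a coding exon of Bche-201 at chr3:73700935-73701041 on the minus strand.
Ache: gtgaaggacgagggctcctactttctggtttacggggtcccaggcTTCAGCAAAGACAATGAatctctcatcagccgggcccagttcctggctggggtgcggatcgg
Bche: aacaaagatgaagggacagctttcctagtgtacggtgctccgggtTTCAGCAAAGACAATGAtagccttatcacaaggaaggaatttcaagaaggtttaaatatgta
The stretches also show the difference in base composition, with a GC content of 58.9% in the Ache stretch and 40.2% in the Bche stretch. Over the longest coding transcripts the GC content was 60.4% for Ache and 38.3% for Bche.

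Chat encodes choline acetyltransferase, the enzyme that joins choline to acetyl-CoA and defines a cholinergic neuron. Its gene spans chromosome 14 from 32408203 to 32465909 on the minus strand in mm10, and Slc18a3, the vesicular acetylcholine transporter, lies inside it at 32462438 to 32464850 in GENCODE M21. Their exons share 0 bases. Chat had 0 reads in F1m-CON, 1 read in F1m-GCS and 0 reads in both HT22 libraries. The zeros allow up to 0.0962 CPM in F1m-CON, 0.164 CPM in HT22 CON and 0.227 CPM in HT22 SUP, taking 3 reads as the limit. Chat was thus at or under the limit of detection everywhere, and no fold was computed.

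Slc5a7 encodes the high-affinity choline transporter that returns choline from the cleft to the cholinergic terminal. It lies on chromosome 17 from 54273594 to 54299034. It had 21 reads in F1m-CON and 20 in F1m-GCS, which is 0.674 and 0.661 CPM, and 0 reads in both HT22 libraries. The log2 ratio of F1m-GCS over F1m-CON was -0.01 (-0.98 to 0.94). At this depth the counts allow any ratio from 0.509 to 1.92, so a smaller change in Slc5a7 was not detectable. Slc5a7 was thus detected in the tissue at a low level, and its zeros in HT22 CON and HT22 SUP allow up to 0.164 CPM and 0.227 CPM.

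Ache encodes acetylcholinesterase, the synaptic enzyme that ends cholinergic transmission. It lies on chromosome 5 from 137287519 to 137294466 on the plus strand. It had 1976 reads in F1m-CON and 2172 in F1m-GCS, or 63.4 CPM (60.6 to 66.2) and 71.8 CPM (68.8 to 74.8), and was the member with the most reads in each of the 4 libraries. The F1m-GCS library was higher by a log2 ratio of 0.19 (0.10 to 0.28), which is 1.14-fold (1.07 to 1.21). The interval excludes equal levels, but the difference is small beside the 1.5-fold used below. Among the 13392 measured genes, those with at least 50 reads in 1 of the pair of libraries, 2008 had a ratio at least as high as that of Ache. The antisense RNA gene Gm42456 shares 98 exon bases with Ache. The counting is not stated to use strand, so reads there cannot be told apart.

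Bche encodes butyrylcholinesterase, which also splits acetylcholine and is known in brain mainly from glia and some neurons. It lies on chromosome 3 from 73635808 to 73708415 on the minus strand. It had 179 reads in F1m-CON and 302 in F1m-GCS, which is 5.74 CPM (4.93 to 6.65) and 9.98 CPM (8.88 to 11.2). The intervals of the 2 levels do not overlap. The log2 ratio was 0.80 (0.54 to 1.08), which is 1.74-fold higher in F1m-GCS (1.45 to 2.12). In bulk tissue, a different number of cells of a type and a different amount of RNA per cell cannot be told apart.

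**Figure D1:**
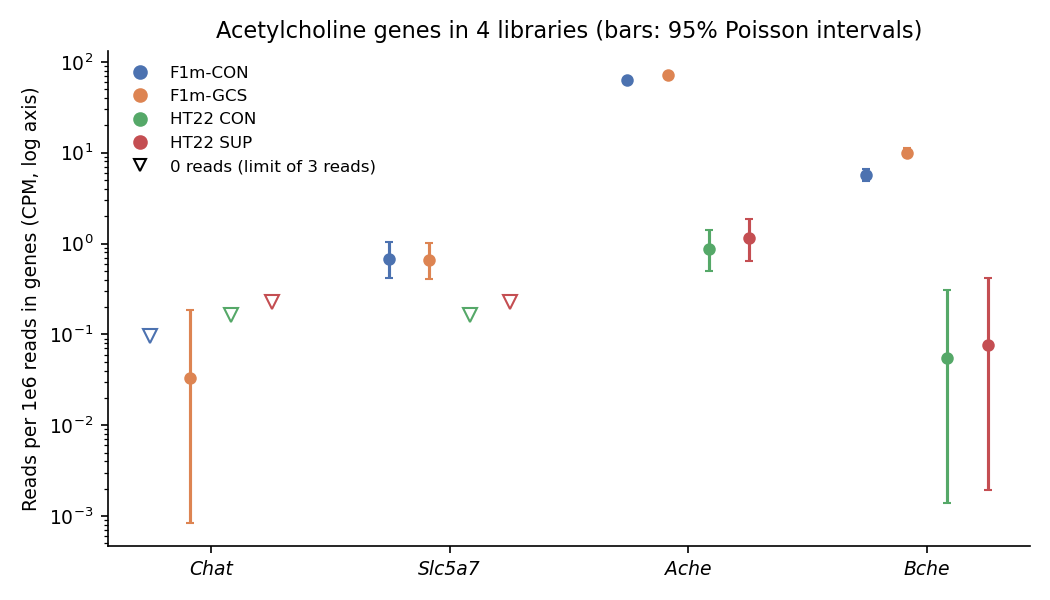
Level of each gene in the 4 libraries as CPM on a log axis, with points for the level, bars for the exact 95% Poisson interval, and open triangles at the limit of 3 reads where 0 reads were counted. Ache lies at 63.4 and 71.8 CPM in the hippocampus libraries, far above Bche, Slc5a7 and Chat, and at 0.874 and 1.14 CPM in the HT22 libraries.

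A gene was called higher or lower when it differed by at least 1.5-fold with an interval that excluded a log2 ratio of 0. By this rule 1 of the 2 measured members, Bche, was higher in F1m-GCS and 0 were lower. Over all measured genes 1.80% were higher and 0.904% lower, and the median log2 ratio lay close to 0, at -0.0042. Of all 13392 measured genes, 73 had a log2 ratio at least as high as that of Bche. Ache was not called, and Slc5a7 and Chat had too few reads to be measured.

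**Figure D2:**
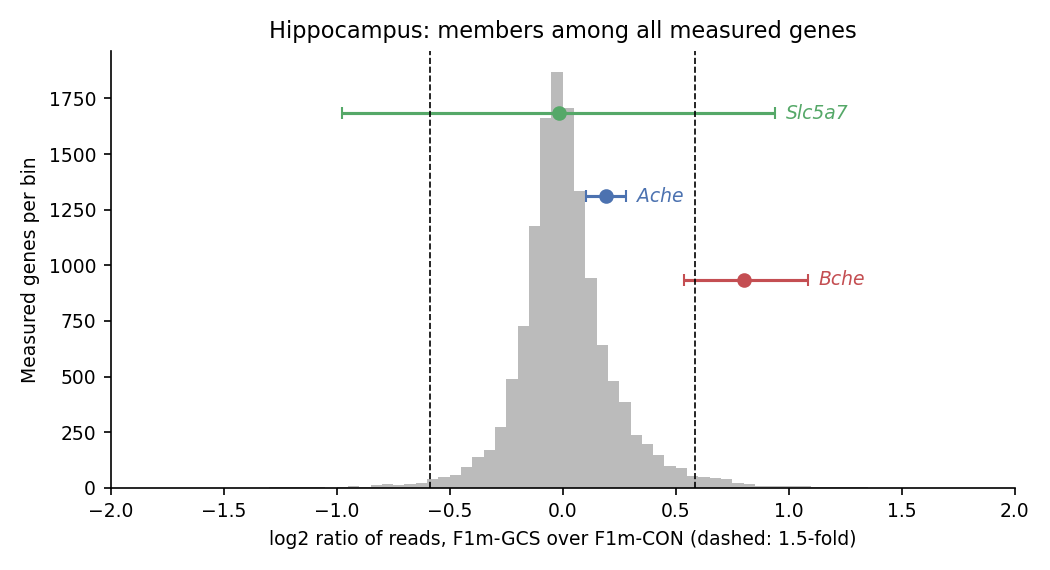
Histogram of the log2 ratio of F1m-GCS over F1m-CON for the measured genes (grey, bins of 0.05), with each gene's ratio and 95% counting interval as a coloured point and bar at an arbitrary height. Bche at 0.80 lies beyond the dashed 1.5-fold line, Ache at 0.19 lies inside it, and the interval of Slc5a7, which has too few reads to be among the measured genes, spans both lines.

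The ratio between these libraries moved with GC content, and Bche lies where it was highest. Measured genes were split by GC content into 10 groups of near-equal size. The group lowest in GC, between 33.1% and 42.0%, had a median log2 ratio of 0.18, and the group highest in GC, between 58.4% and 72.8%, had -0.02. Bche falls in the first of these groups and Ache in the last. Genes of like coding length and GC content to Bche had a median of 0.17. Relative to that median the log2 ratio of Bche was 0.63 (0.36 to 0.91). That value lies just above 1.5-fold, and its interval reaches below 1.5-fold. The log2 ratio of Ache, relative to its own group, was 0.20 (0.11 to 0.29).

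**Figure D3:**
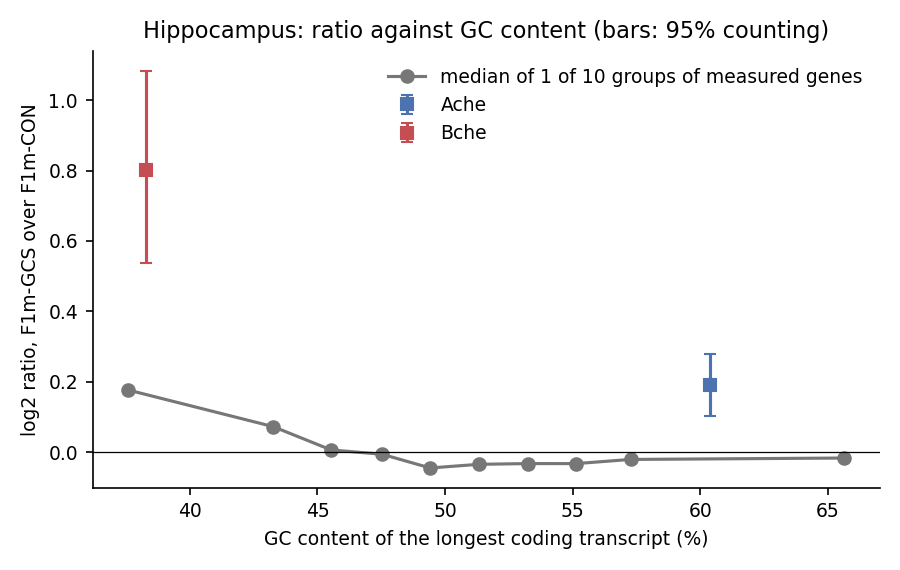
Log2 ratio of F1m-GCS over F1m-CON against the GC content of the longest coding transcript, with grey points for the median of each of 10 groups of measured genes, placed at the midpoint of its GC range, and squares with 95% counting intervals for the cholinesterases. Bche at 0.80 lies above the median of 0.18 of the genes lowest in GC, and Ache at 0.19 above the median of -0.02 of those highest in GC.

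The 2 cholinesterases can also be compared within a library, where library size plays no part. The trend with GC content does not cancel here, as genes of like length and GC had medians of 0.17 for Bche and -0.01 for Ache. The values below are not corrected for it. Bche made up 179 of 2155 cholinesterase reads in F1m-CON, or 8.31% (7.18 to 9.55, Clopper-Pearson), and 302 of 2474 in F1m-GCS, or 12.2% (10.9 to 13.6). Bche reads per Ache read were 1.53 times higher in F1m-GCS (1.26 to 1.88, exact conditional interval of the odds ratio). Per kilobase of coding length the level of Ache was 10.8 times that of Bche in F1m-CON and 7.06 times in F1m-GCS. Per kilobase of the longest coding transcript, which counts the untranslated parts that make up most of Bche-201, these ratios were 31.4 and 20.4. Ache was the higher of the pair on both scales.

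**Figure D4:**
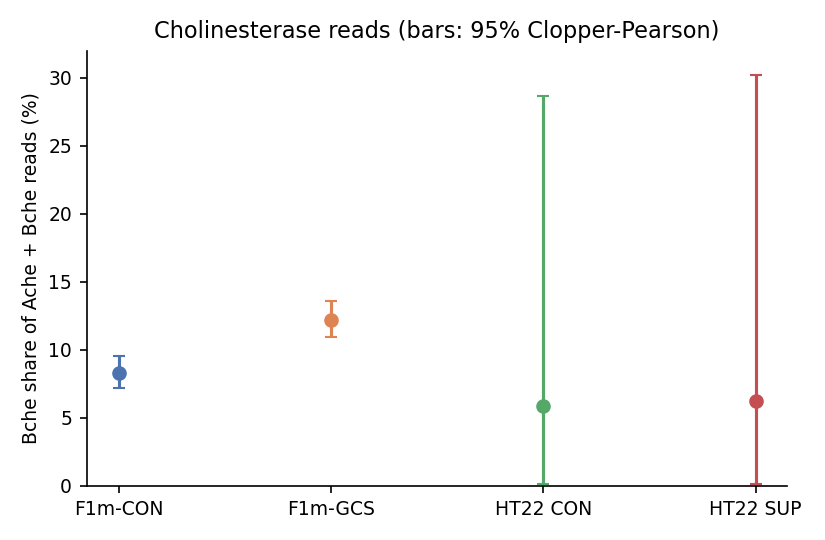
Share of Bche among Ache and Bche reads in each library, in percent, with 95% Clopper-Pearson intervals and no correction for GC content. The share was 8.31% in F1m-CON and 12.2% in F1m-GCS with intervals that do not overlap, and the HT22 libraries, with 17 and 16 reads, have intervals that include both values.

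In HT22 cells Ache was detected at a low level, and the other 3 genes had at most 1 read. Ache had 16 reads in HT22 CON and 15 in HT22 SUP, or 0.874 CPM (0.500 to 1.42) and 1.14 CPM (0.636 to 1.88). Its log2 ratio of HT22 SUP over HT22 CON was 0.35, with counts that allow any ratio from 0.604 to 2.83, so no difference was detectable at this depth. Pan-neuronal markers stood higher in the same library, with 8 of 10 measured genes higher, 1 lower and a median log2 ratio of 1.33, and their part in the Ache counts was not tested. Bche had 1 read in each HT22 library, and Chat and Slc5a7 had 0. Thus 0 of the 4 genes reached 50 reads. In this comparison 5.13% of 10854 measured genes were higher and 2.89% lower by the same rule.

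The HT22 levels can be set beside those of the hippocampus, although the tables were made separately. Ache stood at 1.29% (0.739 to 2.10) of its mean hippocampus level in HT22 CON and at 1.68% (0.942 to 2.78) in HT22 SUP. Over 650 genes with at least 50 CPM in both hippocampus libraries and under 1/100 of their hippocampus level in HT22, the pooled level was 0.345% in HT22 CON and 0.830% in HT22 SUP. That cut holds the pooled share down and leaves out Ache itself, so the gap between them is set by the choice of genes. With genes under 1/20 of their hippocampus level the pooled shares were 0.869% and 1.63%, inside the counting intervals of Ache. This cut also sets its pooled share and takes in Ache itself, so nothing is concluded from the likeness. Where the HT22 reads of these genes come from was not tested.

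Genes that supply or receive the cholinergic signal were described as lists. Over the enzymes and carriers of acetyl-CoA and choline supply, 8 of 11 genes were measured in the hippocampus, 0 were higher or lower, and the median log2 ratio was 0.01. Pdhb, a subunit of pyruvate dehydrogenase, had 2830 and 2505 reads and -0.12 (-0.20 to -0.04). Acss2, which makes acetyl-CoA from acetate, had 0.11 (0.02 to 0.20). Slc44a1, a choline transporter of many cell types, had 4296 and 3965 reads and -0.06 (-0.12 to 0.00).

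Prima1 encodes the membrane anchor that holds acetylcholinesterase at brain synapses. It had 93 reads in F1m-CON and 108 in F1m-GCS, with a log2 ratio of 0.26 (-0.14 to 0.69), so its interval includes 0. Colq, the collagen tail that anchors the enzyme in muscle, had 3 and 7 reads, too few to be measured. The neuroligins, adhesion proteins with a cholinesterase-like domain that lacks the enzyme activity, gave 0 of 3 measured genes higher or lower. Nlgn1 had 0.17 (0.10 to 0.25), Nlgn2 0.05 (0.00 to 0.09) and Nlgn3 -0.04 (-0.12 to 0.05).

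Of 18 acetylcholine receptor genes 11 were measured in the hippocampus, and 0 were higher or lower by the rule. Their median log2 ratio was 0.11, with 8 of 11 above 0. Over all measured genes the median was -0.0042, with 6538 of 13392 above 0. Chrna7, the subunit of the alpha-7 nicotinic receptor, had 751 and 926 reads and 0.36 (0.22 to 0.50). Chrm4, a muscarinic receptor, had 561 and 672 reads and 0.31 (0.15 to 0.48). Chrna4, a subunit of the main brain nicotinic receptor, had 855 and 730 reads and -0.17 (-0.32 to -0.03). Each of these 3 intervals excludes 0, and each ratio stays within 1.5-fold.

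**Figure D5:**
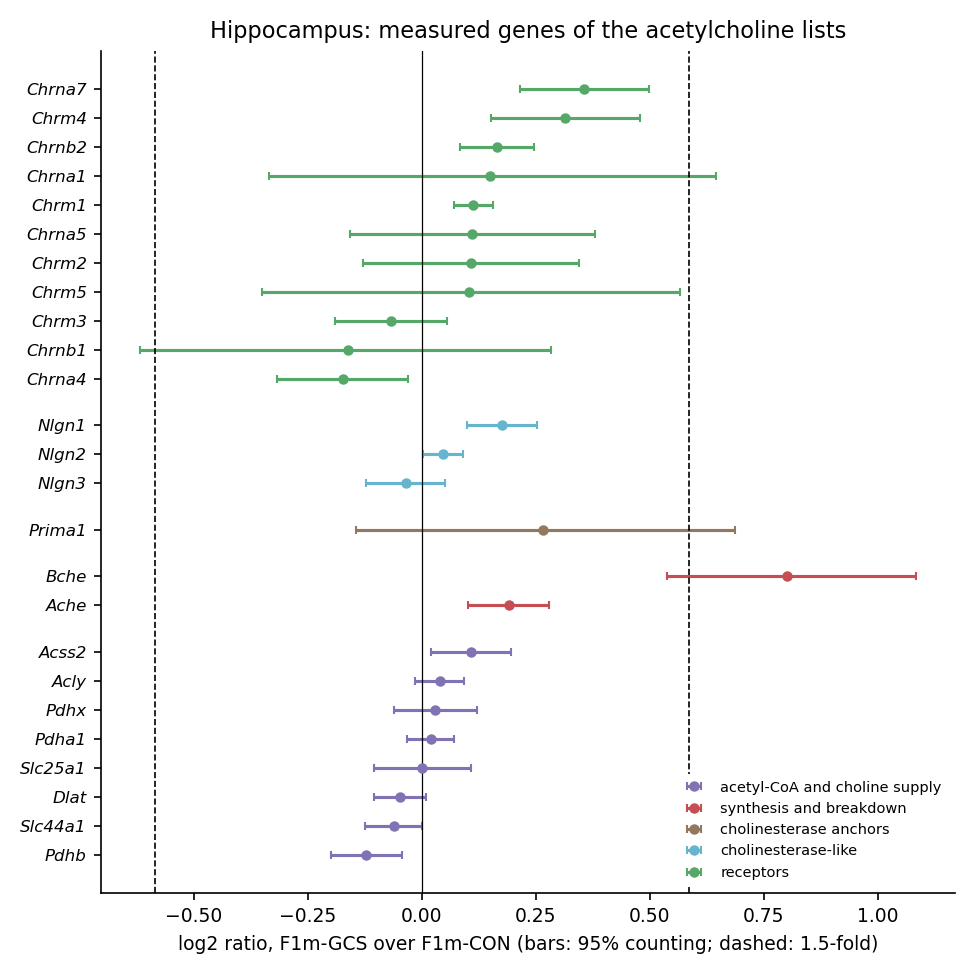
Log2 ratio of F1m-GCS over F1m-CON for the measured genes of the lists of synthesis and breakdown, supply, anchors, cholinesterase-like proteins and receptors, with 95% counting intervals, coloured by list, and dashed lines at 1.5-fold. Bche at 0.80 is the 1 gene whose ratio lies beyond a dashed line, and Chrna7 at 0.36 is the next highest.

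In HT22 cells the supply enzymes were well counted, unlike Chat and Slc5a7. Of 11 supply genes 8 were measured, 0 were higher or lower, and the median log2 ratio was -0.25 against -0.05 over all measured genes. In HT22 the median ratio also moved with coding length, from -0.12 at 981 to 1188 bases to 0.30 at 3567 bases or more. By GC content it was -0.12 in the lowest of 10 groups and 0.02 in the highest. The values of the supply genes are not corrected for either. Pdha1, another pyruvate dehydrogenase subunit, had 4083 reads in HT22 CON and 2347 in HT22 SUP, with -0.31 (-0.39 to -0.24). Slc44a1 had 2270 and 1341 reads and -0.27 (-0.37 to -0.18), and Acss2 -0.26 (-0.45 to -0.08). Only Chrnb1, a nicotinic subunit best known from muscle, was measured among the 18 receptor genes, with 74 reads in each HT22 library. As the libraries differ in size, this is 4.04 CPM in HT22 CON and 5.61 CPM in HT22 SUP. Its log2 ratio was 0.47 (-0.0004 to 0.97), an interval that just includes 0. Prima1 had 0 reads in both HT22 libraries.

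Markers of cholinergic neurons and of cholinergic regions near the hippocampus were read beside the members. Lhx8 and Gbx1, transcription factors of forebrain cholinergic neurons, had 0 reads in both hippocampus libraries. Ngfr, the neurotrophin receptor of septal cholinergic neurons, had 58 and 59 reads. Gbx1 had 15 reads in HT22 CON and 27 in HT22 SUP. Of 7 listed markers of the medial habenula, a cholinergic nucleus close to the hippocampus, 3 were measured in the hippocampus libraries and 1 was lower, Gpr151, with 64 and 27 reads. Only Chrna3 and Gng8 had more reads in F1m-GCS, both under 50 reads. Chrna3 had 9 and 25 reads and 1.34 (0.38 to 2.81), and Gng8 had 35 and 46 reads. The rest of the list had fewer reads in F1m-GCS, among them Tac2 with 134 and 106. The median log2 ratio of the 3 measured markers was -0.28. The 7 listed markers summed to 25.8 CPM in F1m-CON and 24.4 CPM in F1m-GCS, of which Lrrc55 made up 17.6 and 17.5 CPM.

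Marker lists of other cell types are given beside the difference of Bche. Over all measured genes 0.904% were lower and 1.80% higher in F1m-GCS. Choroid plexus markers summed to 1920 CPM in F1m-CON and 1636 CPM in F1m-GCS, with 3 of 10 lower, 0 higher and a median log2 ratio of -0.49. Meningeal and fibroblast markers summed to 629 and 661 CPM, with 0 of 8 called and a median of 0.13. Endothelial markers summed to 237 and 253 CPM, with 0 of 8 called and a median of 0.05. Astrocyte, oligodendrocyte and microglia markers had medians of -0.05, -0.09 and -0.11, with 0 genes called. Pan-neuronal markers had a median of -0.02, with 0 of 11 called. Blood markers summed to 61.6 and 59.3 CPM, with a median of 0.09 and 0 lower. Of these 1 of 5 was higher, Hba-a2, with 101 and 161 reads. Each of these lists had 0 members at 0 reads. Their part in the difference of Bche was not tested.

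For Bche in the hippocampus the authors' deposited table lists 0.81 as log2 fold change, with an edgeR false discovery rate of 1.27e-07, and for Ache 0.19 and 0.00165. These rates rest on 1 library per group and hold no measured spread between animals. For Ache in HT22 cells the authors' deposited table gives 0.11 with a false discovery rate of 1, against the ratio of 0.35 above. Over measured genes the deposited HT22 fold changes differed from the ratio of SUP over CON by a median of 0.075, and from that of SUP over both libraries summed by 0.022, so the deposited HT22 value need not be the same contrast.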

How the data were processed

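The members, gene lists and settings were chosen with earlier results of these data known. The authors used Trim Galore for trimming, TopHat2 for alignment to mm10, HTSeq for counting and edgeR for comparison, per the series' design text, which gives no versions. The deposited counts are raw reads per gene. The deposited RPKM values, per kilobase of coding length, were not used. The deposited log2 fold changes, p-values and false discovery rates are the authors' edgeR values, per the file headers.

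From the counts, library sizes were scaled by TMM in edgeR 4.0.16. Log2 ratios used a prior count of 2, and 95% intervals are exact conditional (Clopper-Pearson) intervals of 2 counts. With 1 library per group no test was run. The functions were tested on simulated data. Genes had to reach 50 reads in 1 library to be measured. GC content was that of a gene's longest coding transcript (GENCODE M21), found for 21096 genes. The correction subtracts the median of genes in 1 of 10 groups by coding length and 5 by GC. Named genes are the members, list genes called, and otherwise up to 3 per list with the ratio farthest from 0. Others, among them Prox1, Rbfox3, Colq, Lhx8, Gbx1, Chrna3, Gng8, Eno2, Wfs1 and Tubb3, were chosen after their values were seen. A few genes named by the rule are left out here. Alternatives were total counts, size factors of DESeq2 1.42.0, a prior count of 0.25 or 10, a minimum of 10 or 200 reads, the correction and other denominators.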

Additional observations from a re-analysis of the deposited data

How the results depend on the processing

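The log2 ratios of Bche, Ache and Slc5a7 in the hippocampus and of Ache in HT22 cells stayed inside their counting intervals under total counts, DESeq2 size factors, both other prior counts and the correction for coding length and GC content. The ratio of Bche ranged from 0.63 with the correction to 0.81 with a prior count of 0.25. Over all genes, the numbers higher and lower in F1m-GCS, 241 and 121, were 417 and 242 with at least 10 reads and 105 and 12 with at least 200. In HT22 SUP they were 557 and 314, with 1146 higher at 10 reads and 267 and 131 at 200 reads. Per uniquely mapped reads the level of Ache was 50.4 and 56.7 per 1e6 in F1m-CON and F1m-GCS, and that of Bche 4.56 and 7.89. The pooled hippocampal share in HT22 CON and HT22 SUP was 0.341% and 0.817% with at least 10 CPM, and 0.869% and 1.63% with genes under 1/20. Per kilobase of transcript, chosen after the data were seen, Ache stood 31.4 and 20.4 times above Bche. No paired analysis was possible because each group holds 1 library. The depth limits Chat, Slc5a7 and the HT22 values of the 4 genes.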

Other observations

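The search for genes with a like pattern was set for members with at least 50 reads in both tables, which 0 of the 4 reached, so it was run after the data were seen for Ache and Bche. Likeness was the Euclidean distance of log2 (CPM + 0.1), centred on each gene's mean over the 4 libraries. Nearest to Ache was Chrnb2, the beta-2 nicotinic receptor subunit, at a distance of 0.039, with 2398, 2589, 19 and 18 reads in F1m-CON, F1m-GCS, HT22 CON and HT22 SUP. Next were Gria4, an AMPA receptor subunit, at 0.057 and Pik3c2b, a lipid kinase, at 0.088. Nearest to Bche were Syt10 at 0.242, Ret at 0.273 and Zkscan16 at 0.273, and Syt10 and Ret had 0 reads in both HT22 libraries. The distances rest mainly on the gap between tissue and cell line, which these genes share with many others.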
